A study of Mus musculus with 68 samples.

Results

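The genes described here are 7 matrix metalloproteinases (Mmp2, Mmp3, Mmp8, Mmp9, Mmp12, Mmp14 and Mmp19) and 3 tissue inhibitors of metalloproteinases (Timp1, Timp2 and Timp3). They are 10 of the 24306 genes named on the arrays, found by the platform's gene symbols, with 17 probes in all. Each gene was read from its brightest probe by the mean over 68 arrays. Mmp2, Mmp3, Mmp8, Mmp14 and Timp1 have 1 probe each, and the other probes of Mmp9, Mmp12, Mmp19, Timp2 and Timp3 served as a check. The arrays measured RNA of mouse lung from laser-microdissected alveolar septa and vessels, 34 arrays of each. At 3 months there were wild-type mice in room air (n = 5 arrays per compartment) or under cigarette smoke (n = 5), and Fgf10 knock-down mice in room air (n = 4) or under smoke (n = 5). The treatment text gives the lowered Fgf10 dose as Fgf10+/-. At 8 months there were room air controls (n = 5), smoke controls (n = 5) and smoke-exposed mice labelled Fgf10 overexpression (n = 5), after which a treatment week with or without doxycycline followed. The labels call Fgf10 in the 8-month controls wild-type. They do not give the promoter behind the overexpression, whether the controls carried a transgene or doxycycline, or the strain, sex and age. The labels do not say which septa and vessel arrays came from 1 mouse, and the growth text names 3 months for every sample. The fourth wild-type smoke septa array is called knock-down in 1 field and wild-type in its title, which was followed.

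Matrix metalloproteinases are zinc-dependent endopeptidases that are made as inactive precursors and cleave collagens, elastin, basement membrane proteins and many secreted factors once activated. The Timp proteins bind the active site of these enzymes and block it, so protease and inhibitor are usually read together. In the lung, Mmp12 is the elastase of macrophages and is tied to smoke-induced emphysema in mice, while Mmp8 and Mmp9 are stored in neutrophil granules. RNA levels do not report the activity of these enzymes.

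Before the results, 3 arrays stood apart. The median correlation of an array with the others of its compartment was 0.006 for the fifth and 0.287 for the first knock-down smoke septa array, and 0.469 for the fifth knock-down smoke vessel array, against at least 0.709 elsewhere. On the fifth septa array Sftpc, which marks alveolar type 2 cells, was at 4.59, against its label. Member differences in the knock-down smoke comparisons, whose groups hold these low-correlation arrays, are given with and without them. Fgf10 did not separate the labels in room air or at 8 months. In septa it lay between 7.16 and 8.69 (mean 7.71) in wild-type room air and between 7.94 and 9.21 (mean 8.36) in knock-down room air. At 8 months it lay between 7.81 and 10.83 (mean 9.01) under smoke and between 6.88 and 9.22 (mean 8.21) with the overexpression label. Both septa differences of means run against the labels. Under 3-month smoke Fgf10 in septa was lower on average in the knock-down, the direction of the label, at 3.77 to 8.54 (mean 5.82) against 7.08 to 10.19 (mean 8.50) in wild-type mice, with overlap. That knock-down group holds both low-correlation septa arrays, and without them it lay between 4.16 and 8.54 (mean 6.84). In vessels the Fgf10 means were 5.24 in wild-type and 5.51 in knock-down room air. Under 3-month smoke they were 6.26 in wild-type and 5.51 in knock-down vessels (5.90 without the low-correlation array). At 8 months they were 7.31 under smoke and 5.47 with the overexpression label. Each of these vessel pairs overlapped. Every statement on knock-down or overexpression therefore rests on the labels. The compartments did separate by smooth muscle markers: all 8 were lower in septa. Their summary level was 9.07 to 10.25 against 11.25 to 14.00 in vessels without the 3 arrays. These are bulk samples, so fewer cells of a type and less RNA per cell cannot be told apart.

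Of the members, 7 have an entry among the RefSeq promoters of GRCm38.p6. Mmp12, Mmp3 and Mmp8 lie in 1 cluster of metalloproteinase genes on chromosome 9, in the order Mmp13, Mmp12, Mmp1b, Mmp3, Mmp1a, Mmp10, Mmp8, Mmp27, Mmp20 and Mmp7. Their 250 bases before the listed start are shown because these neighbours differed in the pattern over the groups, described next. Capitals mark the AP-1 motif TGANTCA, which reads the same on both strands.
Mmp3, chr9:7445572-7445821, + strand: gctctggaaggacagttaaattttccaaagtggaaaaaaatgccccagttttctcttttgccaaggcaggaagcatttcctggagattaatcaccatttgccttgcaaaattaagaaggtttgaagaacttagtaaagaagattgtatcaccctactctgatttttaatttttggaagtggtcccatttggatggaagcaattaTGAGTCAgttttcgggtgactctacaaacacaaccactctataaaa
Mmp12, second listed start, chr9:7347124-7347373, + strand: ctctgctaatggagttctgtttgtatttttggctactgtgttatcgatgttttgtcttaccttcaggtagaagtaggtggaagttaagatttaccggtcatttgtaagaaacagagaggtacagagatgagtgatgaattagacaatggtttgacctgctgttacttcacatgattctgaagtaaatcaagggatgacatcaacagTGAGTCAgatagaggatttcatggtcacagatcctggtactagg
Mmp8, chr9:7558179-7558428, + strand: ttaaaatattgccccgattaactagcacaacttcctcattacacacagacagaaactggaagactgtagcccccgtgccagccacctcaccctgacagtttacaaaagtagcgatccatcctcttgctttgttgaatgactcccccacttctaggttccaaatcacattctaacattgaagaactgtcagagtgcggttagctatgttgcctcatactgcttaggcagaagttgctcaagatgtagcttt
The motif starts at position -46 from the listed start in Mmp3 and at -44 in Mmp12. The Mmp8 window, the first listed Mmp12 start and the windows of Mmp14, Timp1, Timp2 and Timp3 do not contain these letters. Of all 32851 promoters in the table, 2217 (6.75 percent) hold the motif. A match of letters is no evidence of binding.

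Of the 10 genes 4 differed between the compartments. Mmp3 and Mmp2 were lower in septa than in vessels, and Mmp8 and Mmp9 were higher. Values are log2 intensities, changes are log2 differences with their standard error (SE), and a gene passed when its limma p-value, adjusted by Benjamini-Hochberg over all genes tested, was under 0.05. This comparison passed 4748 of 23877 genes (19.9 percent), the share against which 4 of 10 members is to be read. The members' median difference was -0.18, beside -0.01 over all genes tested. Without the low-correlation arrays 7788 genes (32.6 percent) and 7 of 10 members passed.

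Mmp3, stromelysin 1, cleaves matrix proteins and activates other metalloproteinases, and fibroblasts are a known source. In wild-type room air it read 5.46, 4.11, 5.50, 3.72 and 4.60 in septa and 10.92, 5.62, 4.38, 9.54 and 7.78 in vessels. The septa values clustered near or below 5.32, percentile 40 of every array, while the vessel values were widely spread and overlapped them. In 8-month room air Mmp3 read 4.41, 4.30, 4.43, 4.44 and 4.49 in septa and 9.67, 10.31, 9.89, 10.89 and 8.02 in vessels, without overlap. Over all arrays it was above percentile 40 on 17 of 34 septa and 31 of 34 vessel arrays. The mean was lower in septa in 7 of 7 conditions, with differences from -5.34 to -2.28, and the groups did not overlap in 4. The difference over all groups was -3.35 (SE 0.37, limma adjusted p = 1.56e-10).

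Mmp2, gelatinase A, is made by fibroblasts and smooth muscle and cleaves denatured and basement membrane collagen. In wild-type room air it read 4.82, 7.68, 8.40, 7.28 and 7.32 in septa and 10.25, 7.89, 11.22, 6.29 and 11.09 in vessels, which overlapped. In 8-month room air the septa read 5.78, 7.60, 9.09, 7.59 and 8.41, all below the vessel values of 9.36, 10.54, 9.78, 10.41 and 9.62. Mmp2 was lower in septa in 7 of 7 conditions, with differences from -2.28 to -0.23 and no overlap in 2. The difference was -1.68 (SE 0.35, limma adjusted p = 0.000277).

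Mmp8, the neutrophil collagenase, had the opposite direction. In wild-type room air it read 8.51, 8.69, 9.83, 9.41 and 10.61 in septa and 7.21, 7.84, 6.23, 7.16 and 6.76 in vessels, without overlap. In wild-type smoke the means were nearly equal, 7.88 in septa and 7.85 in vessels, and the groups overlapped. Mmp8 was higher in septa in 7 of 7 conditions, by 0.03 to 2.66. The difference was 1.24 (SE 0.30, limma adjusted p = 0.00171).

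Mmp9, gelatinase B, is stored in neutrophil granules and also made by macrophages. In wild-type room air it read 8.02, 9.36, 9.12, 9.49 and 11.17 in septa and 7.34, 5.28, 5.03, 4.25 and 6.14 in vessels, without overlap. It was higher in septa in 6 of 7 conditions. The exception was knock-down smoke, where septa lay 0.44 below vessels, and above them without the low-correlation arrays. The difference was 1.61 (SE 0.37, limma adjusted p = 0.000759), and the dimmer probe gave 1.28 (limma adjusted p = 0.000418).

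The other 6 members did not pass. The differences were 0.96 (SE 0.43, limma adjusted p = 0.111) for Mmp12, -0.64 (SE 0.27, limma adjusted p = 0.0838) for Mmp14, a membrane-anchored activator of Mmp2, and -0.70 (SE 0.27, limma adjusted p = 0.0555) for Timp1. Timp3, which binds to the matrix, differed by -0.50 (limma adjusted p = 0.197), Timp2 by 0.15 (0.769) and Mmp19 by 0.14 (0.846). Without the low-correlation arrays Mmp12 was at 1.20 (limma adjusted p = 0.0266), Timp1 was -0.66 (0.00498) and Timp2 0.44 (0.0137), and these 3 passed as well. For Timp2 and Mmp12 the other probes did not pass: the second Timp2 probe gave -0.03 and the dimmer Mmp12 probes 0.64 and 0.27, each over all arrays. Removing single arrays also moved calls: Timp1 passed in 10 such fits, Mmp12 without the first knock-down smoke septa array (1.09, limma adjusted p = 0.0491), and Mmp14 without that array (-0.71, limma adjusted p = 0.0414) or the fourth wild-type room air vessel array (-0.74, limma adjusted p = 0.0314).

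**Figure D1:**
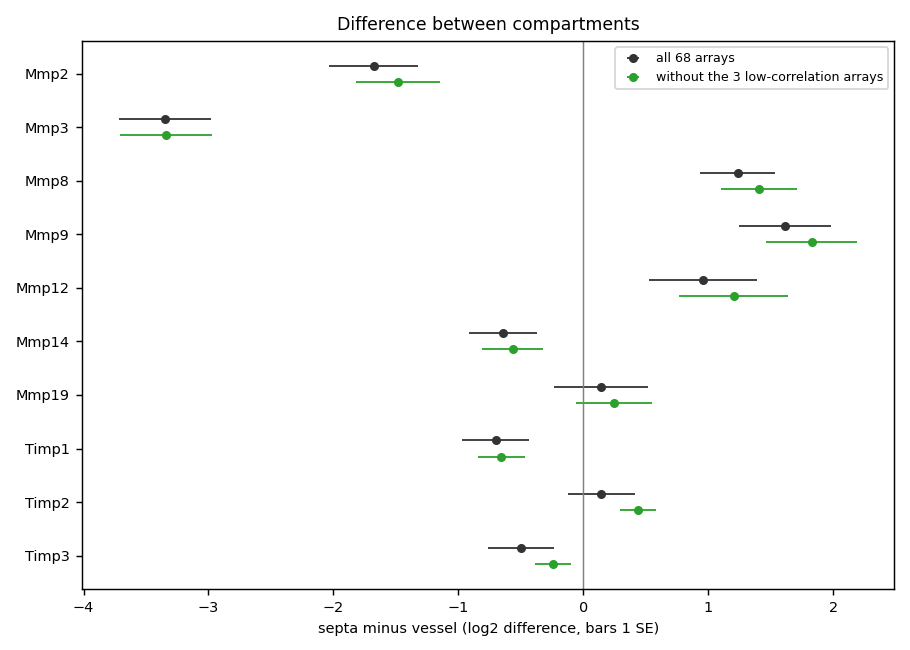
Difference of septa minus vessels for each gene, in log2 units with 1 SE, over all 68 arrays (dark) and without the 3 low-correlation arrays (green). Mmp3 (-3.35) and Mmp2 (-1.68) lie left of 0, Mmp8 (1.24) and Mmp9 (1.61) right of it.

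Markers of other cell types differed between the compartments too, and their counts are to be read against the 19.9 percent of all genes that passed. Of the neutrophil markers 7 of 10 were higher in septa and none lower, with a list median of 1.18, and of the alveolar macrophage markers 6 of 10 were higher and 1 lower, with a median of 1.02. All 8 smooth muscle markers were lower in septa, with a median of -3.42, and so were 5 of 10 fibroblast markers, with 1 higher and a median of -1.04. The neutrophil summary level ran from 8.81 to 11.75 in septa and from 7.25 to 10.59 in vessels without the low-correlation arrays. Over all arrays the median summary level of airway markers was 10.53 in septa and 13.22 in vessels. For interstitial macrophages and monocytes it was 10.77 and 11.37, and for endothelium 12.39 and 11.39. Alveolar type 1 markers were at 13.79 and 12.41, type 2 markers at 13.02 and 12.54, and mesothelial markers at 5.74 and 5.85. The fibroblast list includes matrix genes named next. The part of these cell types in the Mmp differences was not tested.

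The other genes of the pathway were read from lists chosen with earlier results of these data known. Of 16 other metalloproteinases, Mmp24 was higher in septa (0.74) and Mmp17 (-2.28), Mmp23 (-1.56) and Mmp28 (-1.15) were lower. Of 7 other inhibitors and clearance factors, Timp4 was lower (-2.17). In the plasminogen system, which activates several metalloproteinases, 1 of 8 tested genes was higher and 1 lower. These were the activators Plau (1.12) and Plat (-1.48). Of 17 ADAM and ADAMTS proteases 4 were lower and none higher, Adam33 (-2.73) and Adamts2 (-2.27) among them. Of 14 matrix substrates, Spp1 was higher (1.97) and 6 were lower, with Dcn at -5.61, Eln, the elastin gene, at -2.54 and Col1a1 at -2.44. Of 11 AP-1 and ETS factors, Jun (0.90), Ets1 (1.05) and Ets2 (1.22) were higher in septa and Fosb (-1.29) lower. Of 8 serine elastases and their inhibitors 1 was lower, Prtn3 (-0.61), and of 9 binding partners 1 was lower, Itgam (-1.06). All these calls are limma adjusted p under 0.05 over all genes. Of all 23877 genes tested, 2621 were higher in septa and 2127 lower (19.9 percent together), the share against which these list counts are to be read.

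Smoke for 3 months in wild-type mice moved no member past the threshold in either compartment. Members that a paragraph does not name did not pass in its comparison. In septa 1 of 21514 genes passed (0.00465 percent), and without the low-correlation arrays 11 (0.0511 percent). In vessels 32 of 22280 passed (0.144 percent), and 135 (0.606 percent) without those arrays. The member furthest from 0 was Mmp12 in septa. It read 10.29, 5.94, 7.29, 7.18 and 7.32 in room air and 10.63, 11.79, 12.06, 10.24 and 11.53 under smoke. The smoke values formed a tight high group, and 1 room air array, the first, reached into it. The difference was 3.65 (SE 0.93, limma adjusted p = 0.535, and 0.0706 without the low-correlation arrays). The dimmer probes gave 2.04 and 0.77. In vessels Mmp12 read 7.18, 6.93, 3.88, 4.44 and 9.38 in room air and 9.64, 11.63, 8.09, 6.45 and 8.23 under smoke, a difference of 2.45 (limma adjusted p = 0.439) with overlap.

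**Figure D2:**
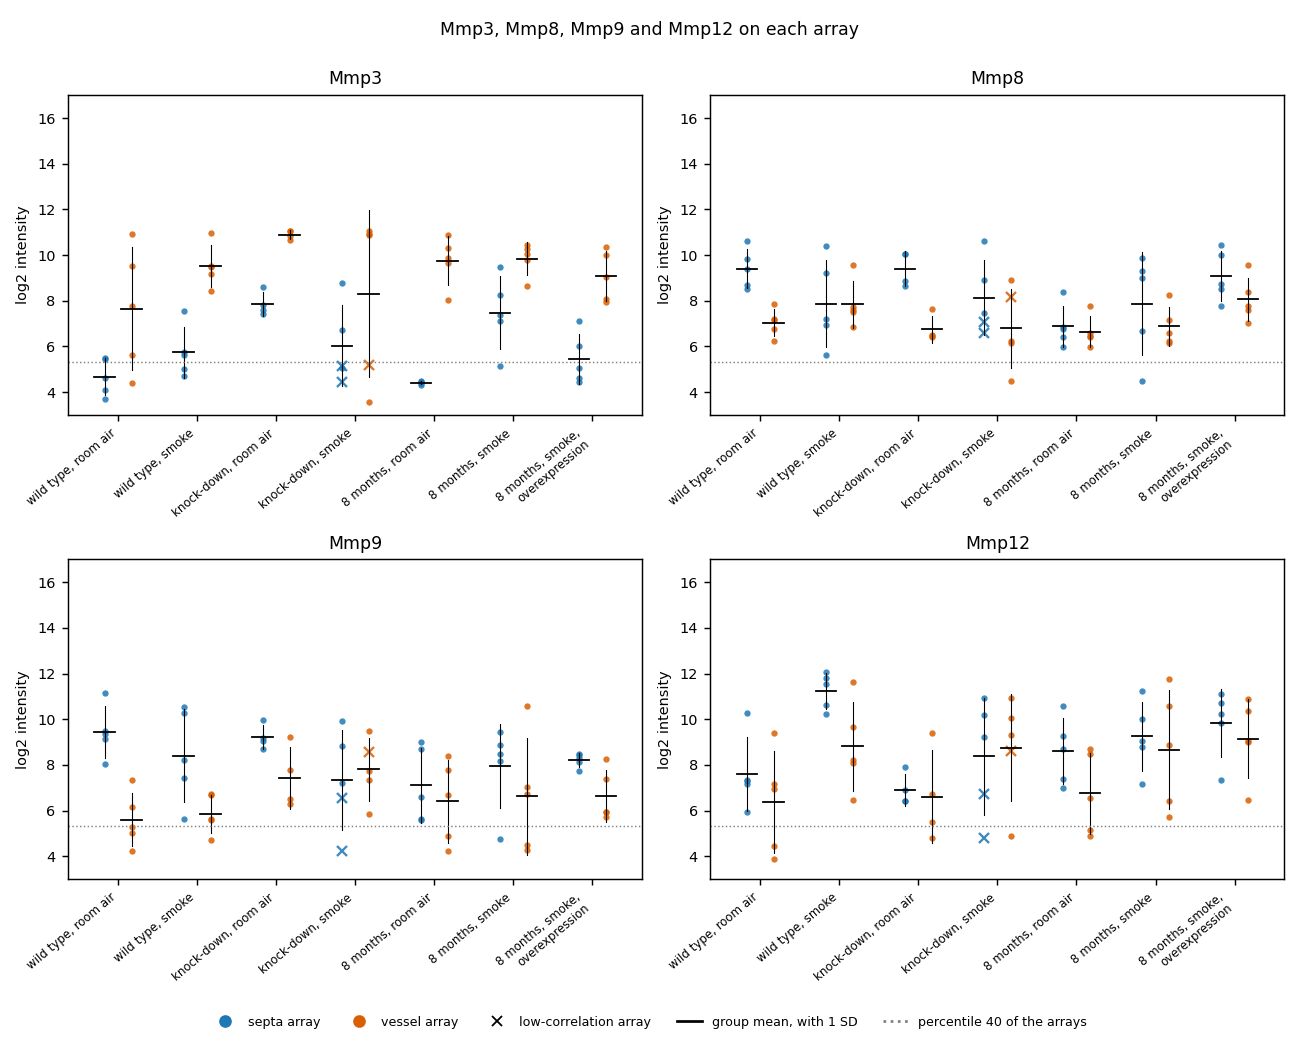
Log2 intensity of Mmp3, Mmp8, Mmp9 and Mmp12 on every array, by condition, with septa in blue and vessels in orange, the group mean with 1 SD in black and the low-correlation arrays as crosses. Mmp12 in septa lies between 10.24 and 12.06 in wild-type smoke, and Mmp3 in septa between 4.30 and 4.49 in 8-month room air.

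Alveolar macrophage markers moved in the same groups as Mmp12. Their summary level over 10 genes ran from 8.51 to 10.13 in wild-type room air septa and from 9.90 to 11.21 under smoke, and in vessels from 7.08 to 8.49 and from 8.54 to 11.19. Of this list, Mrc1 (3.43) and Ccl6 (3.15) passed in vessels, both at limma adjusted p = 0.0400, and Marco (3.64) and Plet1 (3.00) passed in septa without the low-correlation arrays, both at 0.0310. The part of macrophage number in the Mmp12 values was not tested.

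None of the 3 inhibitors passed in vessels under the same smoke. Timp1, a secreted inhibitor induced by inflammatory cytokines, read 8.40, 7.94, 10.09, 9.93 and 10.13 in room air vessels and 10.87, 11.48, 11.10, 10.94 and 11.16 under smoke. Every smoke array lay above every room air array. The difference was 1.81 (SE 0.54, limma adjusted p = 0.162, and 0.0649 without the low-correlation arrays). Timp2, which also takes part in activating Mmp2, read 11.13, 9.73, 10.72, 10.93 and 11.29 in room air and 12.46, 12.15, 12.03, 11.59 and 11.62 under smoke, again without overlap. Its difference was 1.21 (limma adjusted p = 0.218), and its other probe gave -0.06, so the probes disagreed. In the same vessels Mmp14 read 8.23, 8.44, 8.98, 4.65 and 6.69 in room air and 5.61, 5.83, 5.17, 5.49 and 5.03 under smoke, a difference of -1.98 (SE 0.82, limma adjusted p = 0.318). The groups overlapped through the fourth room air array. Timp3 differed by -0.72 (limma adjusted p = 0.382), and its other probes gave 0.65 and 0.47 (limma adjusted p = 0.482 and 0.913), the opposite sign.

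In septa under the same smoke, Mmp2 differed by 1.83 (SE 0.70, limma adjusted p = 1), from a mean of 7.10 to 8.93, and Mmp8 by -1.53 and Mmp9 by -1.02 (both limma adjusted p = 1). Timp1, Timp2 and Timp3 differed by 0.96, 0.37 and 0.25. Whether the 2 compartments respond differently was tested directly, and no member passed among 0 of 23877 genes (0 percent). The furthest were Mmp14, with a septa effect 2.77 above the vessel effect (limma adjusted p = 1), and Mmp8, at -2.34 (limma adjusted p = 1).

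The lowered Fgf10 dose in room air moved no member past the threshold. In septa 0 of 21514 genes passed (0 percent), also without the low-correlation arrays (0 percent). In vessels 76 of 22280 passed (0.341 percent), and 214 (0.961 percent) without them. Mmp3 had the second smallest p of all genes in septa. It read 5.46, 4.11, 5.50, 3.72 and 4.60 in wild-type and 7.82, 8.59, 7.62 and 7.43 in knock-down septa. Every knock-down array lay above every wild-type array and all 4 were above percentile 40. The difference was 3.19 (SE 0.76, limma adjusted p = 1), and with array weights 3.53 (limma adjusted p = 0.00559). In vessels the knock-down arrays were tight, at 11.04, 11.08, 10.65 and 10.84, against the wild-type spread given above, with overlap through the first wild-type array. That difference was 3.25 (SE 1.21, limma adjusted p = 0.213).

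Other members in the knock-down in room air had smaller differences. Timp2 in vessels read 12.23, 12.18, 12.07 and 11.81, all above the wild-type values, a difference of 1.31 (SE 0.44, limma adjusted p = 0.167). Its other probe gave 0.53. In septa Mmp14 read 5.66, 6.18, 6.06 and 5.96 against 4.42, 4.81, 4.40, 5.06 and 5.52, without overlap and near percentile 40, a difference of 1.12 (limma adjusted p = 1). Timp1 in septa read 9.96, 9.53, 9.77 and 9.84 against a wild-type mean of 8.80 (SD 0.63, n = 5), without overlap but nearly touching, and differed by 0.97 (limma adjusted p = 1). Mmp2 in septa differed by 1.57. Mmp8, Mmp9 and Mmp12 in septa differed by -0.00, -0.20 and -0.70.

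Under smoke the knock-down comparison rests on the groups that hold the low-correlation arrays. In septa 655 of 21514 genes (3.04 percent) passed with all arrays and 0 (0 percent) without them. No member passed. Mmp12 read 4.78, 9.22, 10.92, 10.20 and 6.72 in knock-down smoke septa, and the values 4.78 and 6.72 are from the low-correlation arrays. It differed from wild-type smoke by -2.88 (SE 0.93, limma adjusted p = 0.0584), and by -1.14 (limma adjusted p = 0.999) without those arrays. Its other probes gave 0.24 and 0.46 over all arrays (limma adjusted p = 0.874 and 0.776), the opposite sign, and read 9.32 and 13.46 on the first knock-down smoke array, where the brightest read 4.78. With knock-down replicate 2, 3 or 4 removed instead, which leaves both low-correlation arrays in, the brightest Mmp12 probe passed, at -3.10, -3.52 and -3.34 (limma adjusted p = 0.0232, 0.0164 and 0.0141). Timp3 differed by -2.04 with them and by -0.39 without, and Timp2 by -1.64 and 0.47, with -2.36 (limma adjusted p = 0.0498) without replicate 3. For Timp3 the first array read 4.55, while the other 4 read 12.23 to 12.59. Mmp2 read 6.64, 7.90, 7.55, 7.65 and 7.51, all below the wild-type smoke values of 8.33 to 9.41, and differed by -1.48 (limma adjusted p = 0.158) and by -1.23 (0.999) without those arrays.

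In vessels 1200 of 22280 genes (5.39 percent) passed, and 1534 (6.89 percent) without the fifth knock-down array. Mmp19, a secreted protease that cleaves basement membrane proteins, was the one member past the threshold. It read 9.54, 11.24, 11.52, 11.78 and 11.45 in wild-type smoke and 8.14, 7.17, 10.54, 9.54 and 5.11 in knock-down smoke, with overlap. The difference was -3.00 (SE 0.91, limma adjusted p = 0.0480). The call was not stable. Without the fifth knock-down array it was -2.26 (limma adjusted p = 0.126), and the other Mmp19 probe went the opposite way, from a mean of 7.03 to 9.05 (2.02, limma adjusted p = 0.332). Leaving out 1 array at a time gave values from -3.62 to -2.26 over all 10 fits. The call ended for 7 of 10 arrays, with values from -3.02 to -2.26. These were wild-type replicates 2, 3, 4 and 5 and knock-down replicates 1, 2 and 5, with limma adjusted p from 0.0597 to 0.142. Timp1 read 10.21, 10.00, 9.21, 10.94 and 7.47 against 10.87 to 11.48 in wild-type smoke, a difference of -1.54 (limma adjusted p = 0.0870) and -1.02 (0.232) without the fifth array. Without knock-down replicate 4 Timp1 passed (-1.89, limma adjusted p = 0.0369). Mmp9 differed by 1.93 (limma adjusted p = 0.238) and Timp3 by 0.75 (limma adjusted p = 0.190), and without the fifth array by 1.74 (0.327) and 0.61 (0.306). The median over all genes in this comparison was -0.10, and 0.04 without the fifth array.

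**Figure D3:**
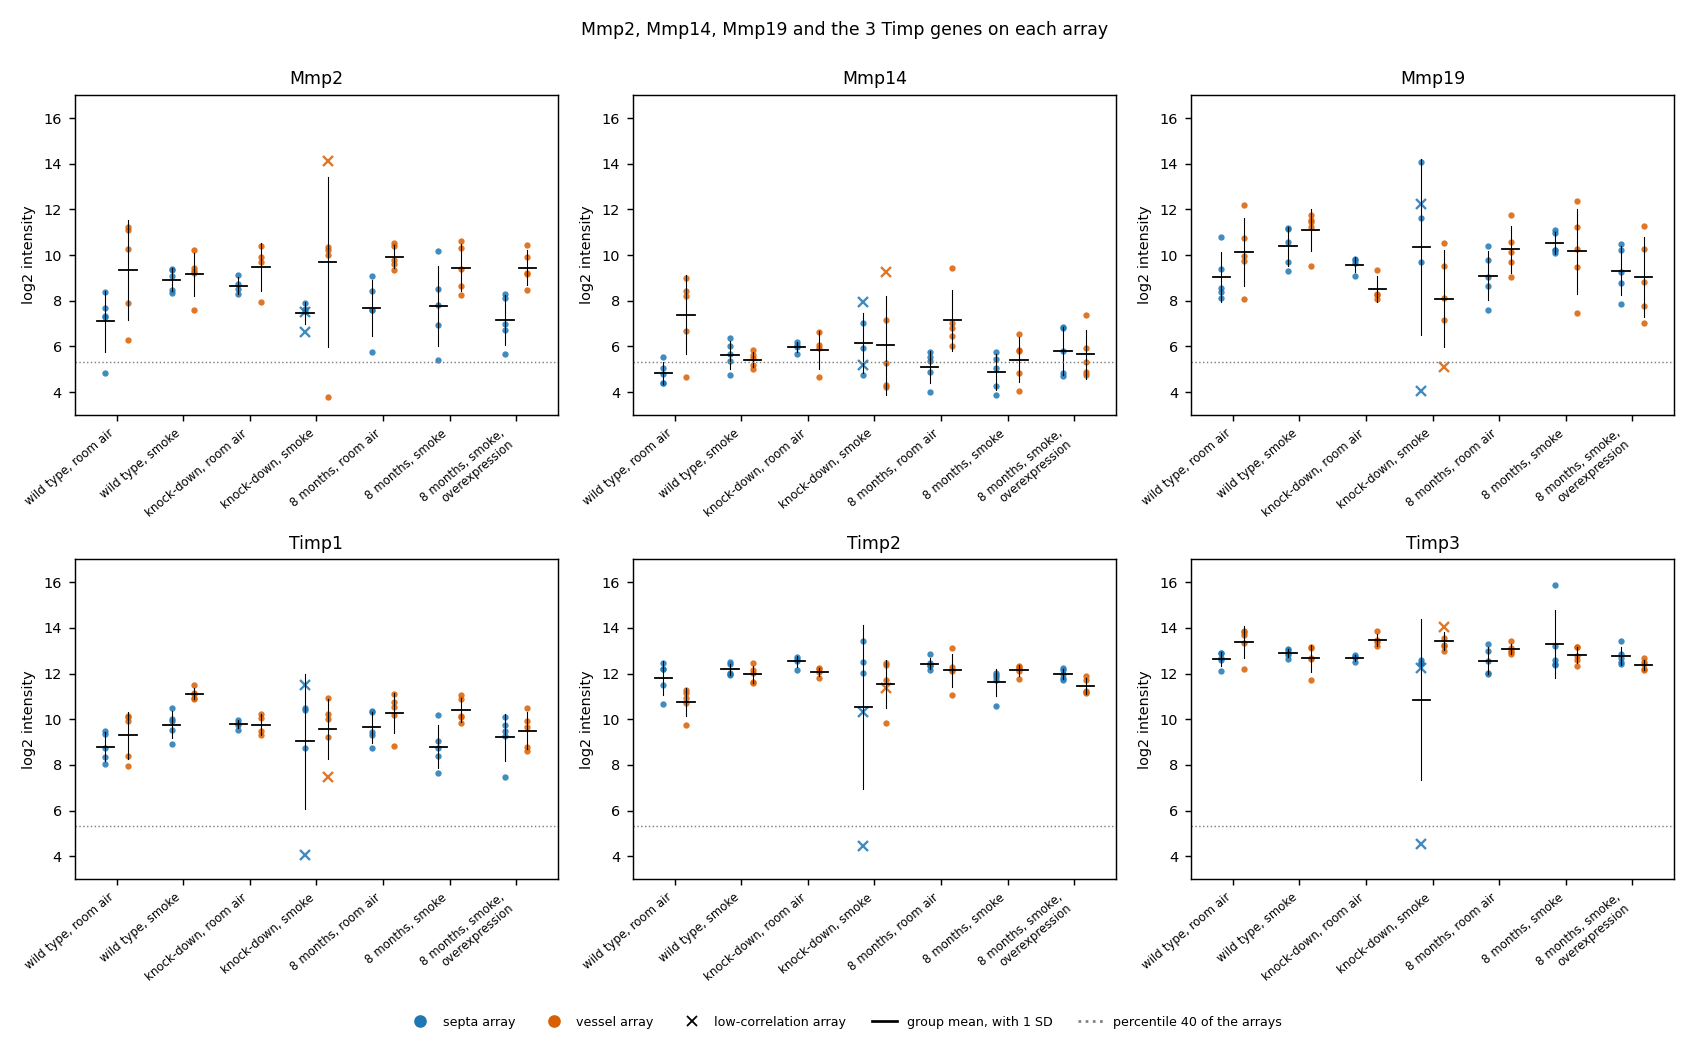
Log2 intensity of Mmp2, Mmp14, Mmp19, Timp1, Timp2 and Timp3 on every array, by condition, with septa in blue and vessels in orange, the group mean with 1 SD in black and the low-correlation arrays as crosses. The first knock-down smoke septa array reads 4.55 for Timp3 and 4.46 for Timp2, far under the other arrays.

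The difference between the compartments in this knock-down effect passed 612 of 23877 genes (2.56 percent) and no member. Without the low-correlation arrays 6 genes passed (0.0251 percent). Timp3 was at -2.79 (limma adjusted p = 0.0886), past the threshold when knock-down smoke septa replicate 2, 3 or 4 was left out (limma adjusted p from 0.0269 to 0.0401), and with the arrays that stood apart removed at -0.999 (0.494). Mmp19 was at 2.96 (limma adjusted p = 0.201), at 3.68 (0.182) with those arrays removed, and at 4.54 (0.0385) without knock-down smoke septa replicate 5. Its other probe gave -3.12 (limma adjusted p = 0.212), the opposite sign.

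Smoke within the knock-down mice passed 0 of 21514 genes in septa (0 percent) and 40 of 22280 in vessels (0.18 percent), with no member. With the low-correlation arrays removed these were 2 (0.0093 percent) and 22 (0.0987 percent). Mmp12 differed by 1.46 in septa over all arrays and by 3.21 without the low-correlation arrays (limma adjusted p = 0.818), from 7.91, 6.42, 6.40 and 6.90 in knock-down room air to 9.22, 10.92 and 10.20 on the 3 remaining smoke arrays. Those groups do not overlap. Timp2 in septa differed by -1.98, and by -2.71 (limma adjusted p = 0.0406) without knock-down smoke replicate 3. With both low-correlation arrays removed its sign turned, to 0.12 (limma adjusted p = 0.999). In vessels Mmp12 differed by 2.16 (limma adjusted p = 0.606), and by 2.20 (0.865) with the fifth array removed. Mmp3 went the other way by value, -1.83 in septa (limma adjusted p = 0.121, and -2.52 with 0.0149 without knock-down smoke replicate 4) and -2.58 in vessels (limma adjusted p = 0.500). With the low-correlation arrays removed Mmp3 was at -0.998 in septa (limma adjusted p = 0.948) and -1.79 in vessels (0.870). The vessel value rests on 2 of 5 smoke arrays, at 3.58 and 5.17, while the others read 11.05, 10.87 and 10.93.

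The interaction, the smoke effect in knock-down minus that in wild-type mice, passed 0 genes in septa (0 percent) and 5 in vessels (0.0224 percent), with no member. It passed 0 (0 percent) and 16 (0.0718 percent) when the low-correlation arrays were removed. The furthest members were Mmp2 in septa at -3.05 (SE 1.02, limma adjusted p = 0.229) and Mmp3 at -2.88 in septa (limma adjusted p = 0.229, and -3.58 with 0.0497 without knock-down smoke replicate 4) and -4.45 in vessels (limma adjusted p = 0.197). Timp2 in vessels was at -1.74 (limma adjusted p = 0.174) and Timp1 at -2.02 (limma adjusted p = 0.220). With the low-correlation arrays removed Mmp2 was at -2.80 (limma adjusted p = 0.698) and Mmp3 at -2.06 (0.724) in septa. In vessels Mmp3 was then at -3.67 (limma adjusted p = 0.312), Timp2 at -1.69 (0.226) and Timp1 at -1.49 (0.343). For Mmp2 the septa means were 7.10 and 8.93 in wild-type room air and smoke and 8.67 and 7.45 in the knock-down.

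At 8 months smoke moved no member past the threshold in septa over all arrays, Mmp3 included. It read 4.41, 4.30, 4.43, 4.44 and 4.49 in room air and 7.12, 5.13, 7.40, 9.47 and 8.27 under smoke. No room air array was above percentile 40, 4 of 5 smoke arrays were, and the groups did not overlap. The difference was 3.06 (SE 0.72, limma adjusted p = 0.126). Since all room air arrays lay below percentile 40, its size is not exact, and with them set to percentile 40 the smoke mean was higher by 2.16 on the log2 scale, or at least 4.46-fold. With all arrays 5 of 21514 genes passed (0.0232 percent) and Mmp3 was not among them. When the arrays that stood apart were removed from the fit, though they belong to other groups, 139 passed (0.646 percent) and Mmp3 was the one member among them (limma adjusted p = 0.0258). It also passed without the second smoke array (3.65, limma adjusted p = 0.0163) and with array weights (2.36, limma adjusted p = 0.0241). The former was the 1 of 10 fits with 1 array left out in which Mmp3 passed, and limma adjusted p reached 0.419 in these. Mmp3 did not pass without the filter, with centring, the compared groups alone or the mean of probes. Nor did it with the conflicting label, the Xist covariate or the replicate block. In vessels Mmp3 read 8.66, 10.45, 9.79, 10.06 and 10.28 under smoke, all within the room air range, a difference of 0.09 (limma adjusted p = 1). The difference between the compartments was 2.97 (SE 1.35, limma adjusted p = 1), where 0 of 23877 genes passed (0 percent).

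Mmp12 at 8 months depended on the probe. The brightest probe read 9.26, 10.60, 8.71, 7.01 and 7.40 in room air septa and 9.04, 7.18, 10.03, 8.78 and 11.23 under smoke, which overlapped, a difference of 0.66 (limma adjusted p = 0.970). The second probe had means of 5.16 (SD 0.61) and 8.73 (SD 2.17), a range of 4.60 to 6.14 against 6.53 to 12.32 without overlap, and a difference of 3.57 (limma adjusted p = 0.144). The third probe gave 1.70 (limma adjusted p = 0.764). All 3 probes thus had a higher mean under smoke. They differed in size, and the first and second also in whether the groups overlapped. In vessels the 3 probes gave 1.92, 1.88 and 2.74, the last with limma adjusted p = 0.545. Alveolar macrophage markers ran from 8.90 to 10.33 in 8-month room air septa and from 10.40 to 12.52 under smoke, without overlap.

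**Figure D4:**
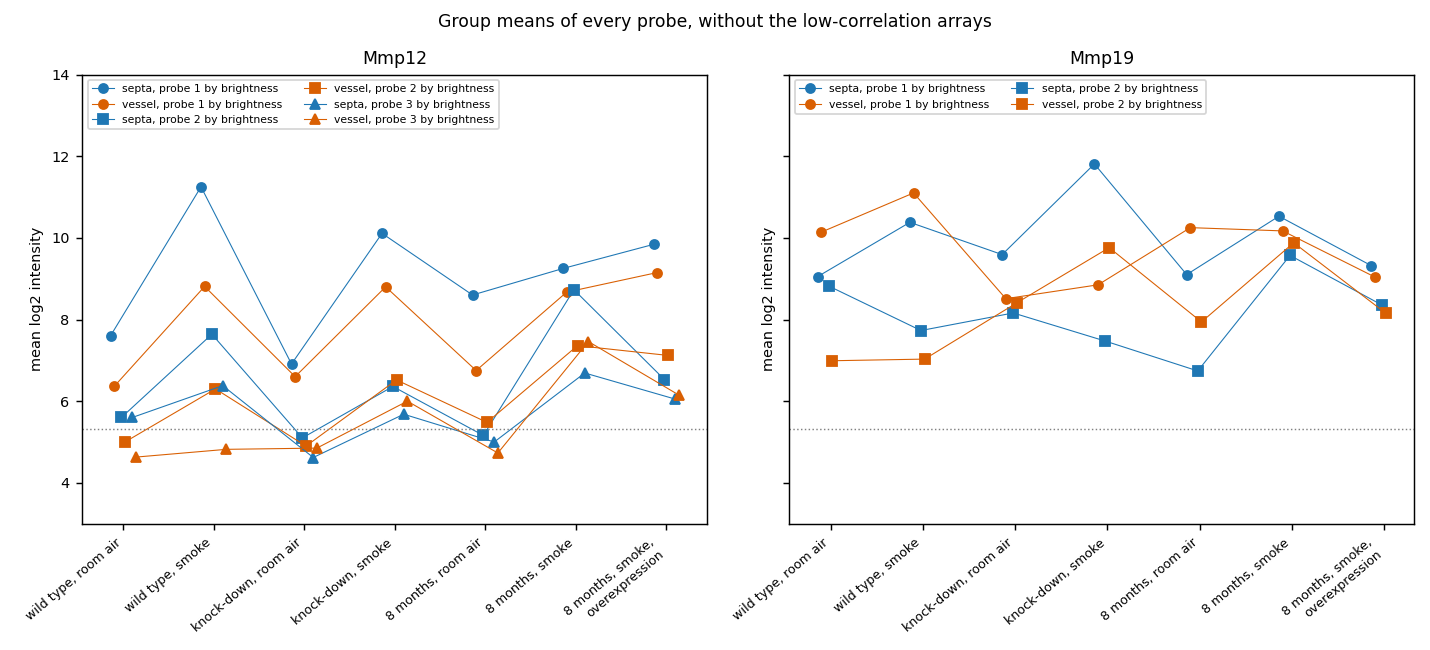
Mean log2 intensity per condition for each probe of Mmp12 (3 probes) and Mmp19 (2 probes), without the low-correlation arrays. Lines join the values of 1 probe and imply no order of the conditions. The second Mmp12 probe in septa goes from 5.16 to 8.73 at 8 months, where the brightest goes from 8.60 to 9.25.

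Mmp19 in septa read 10.42, 9.06, 9.79, 8.66 and 7.59 in 8-month room air and 10.08, 10.21, 10.24, 11.12 and 10.98 under smoke, where only the first room air array reached the smoke range. The difference was 1.42 (limma adjusted p = 0.844), and the other probe, at 5.06 to 8.40 in room air and 9.07 to 10.14 under smoke without overlap, gave 2.83 (limma adjusted p = 0.445). Timp2 in septa read 12.16, 12.84, 12.47, 12.38 and 12.32 in room air and 10.57, 11.74, 11.86, 12.02 and 11.93 under smoke. Every smoke array was lower, by a difference of -0.81 (limma adjusted p = 0.932), and the other probe gave -1.02. Timp1 in septa differed by -0.84 (limma adjusted p = 0.913). In 8-month vessels 0 of 22280 genes passed (0 percent). Mmp14 there had a mean of 7.14 (SD 1.34, n = 5) in room air, up to 9.45, and read 6.55, 5.86, 4.04, 5.80 and 4.85 under smoke, a difference of -1.72 (limma adjusted p = 1), close in value to the 3-month difference. Timp1 and Timp2 in vessels differed by 0.12 and 0.01.

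The smoke effect at 8 months minus that at 3 months was tested as such. It passed 1 gene in septa (0.00465 percent) and 0 in vessels (0 percent), with no member. In septa it was -2.99 for Mmp12 (SE 1.31, limma adjusted p = 0.624), 2.53 for Mmp8 (limma adjusted p = 0.661) and 2.01 for Mmp3 (limma adjusted p = 0.675). The second Mmp12 probe gave 1.53, against the sign of the first. In vessels it was -1.69 for Timp1 (limma adjusted p = 0.717) and -1.21 for Timp2 (limma adjusted p = 0.725). The 8-month arms also differ from the 3-month arms by the week of treatment, so duration and treatment cannot be told apart.

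The overexpression label after smoke passed 0 genes in septa and 0 in vessels (0 percent each) against smoke controls, and no member. Mmp3 in septa read 4.64, 4.44, 5.06, 6.02 and 7.11, against 7.12, 5.13, 7.40, 9.47 and 8.27 in smoke controls. The lower 3 values lay below every smoke control and the upper 2 did not. The difference was -2.02 (SE 0.72, limma adjusted p = 1), and its mean of 5.45 stood between those of room air (4.41) and smoke (7.48). Mmp8 was above smoke controls by value in both compartments, by 1.21 in septa and 1.19 in vessels (limma adjusted p = 1 each). In vessels Timp1 differed by -0.90 and Timp2 by -0.70 (limma adjusted p = 1 each). The second Mmp12 probe in septa gave -2.20 (limma adjusted p = 1), while the brightest gave 0.59. No member and 0 of 23877 genes passed for a difference between the compartments (0 percent).

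Set against room air instead, the overexpression groups passed 1 gene in septa (0.00465 percent) and 9 in vessels (0.0404 percent), with no member. This comparison shares its room air arrays with the smoke comparison. Mmp8 in septa read 8.75, 7.76, 10.43, 8.51 and 9.99 against 6.41, 8.39, 5.98, 6.77 and 6.87 in room air, overlapping through 1 array on each side. The difference was 2.21 (SE 0.88, limma adjusted p = 1). In vessels Mmp8 read 7.03, 7.62, 7.79, 9.55 and 8.38 against 5.98, 6.44, 6.61, 7.79 and 6.43, a difference of 1.42 (limma adjusted p = 1). Neutrophil markers ran from 9.78 to 11.54 in these septa and from 8.81 to 9.68 in room air, and in vessels from 8.69 to 9.85 and from 7.86 to 8.76. The part of neutrophils in the Mmp8 values was not tested.

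**Figure D5:**
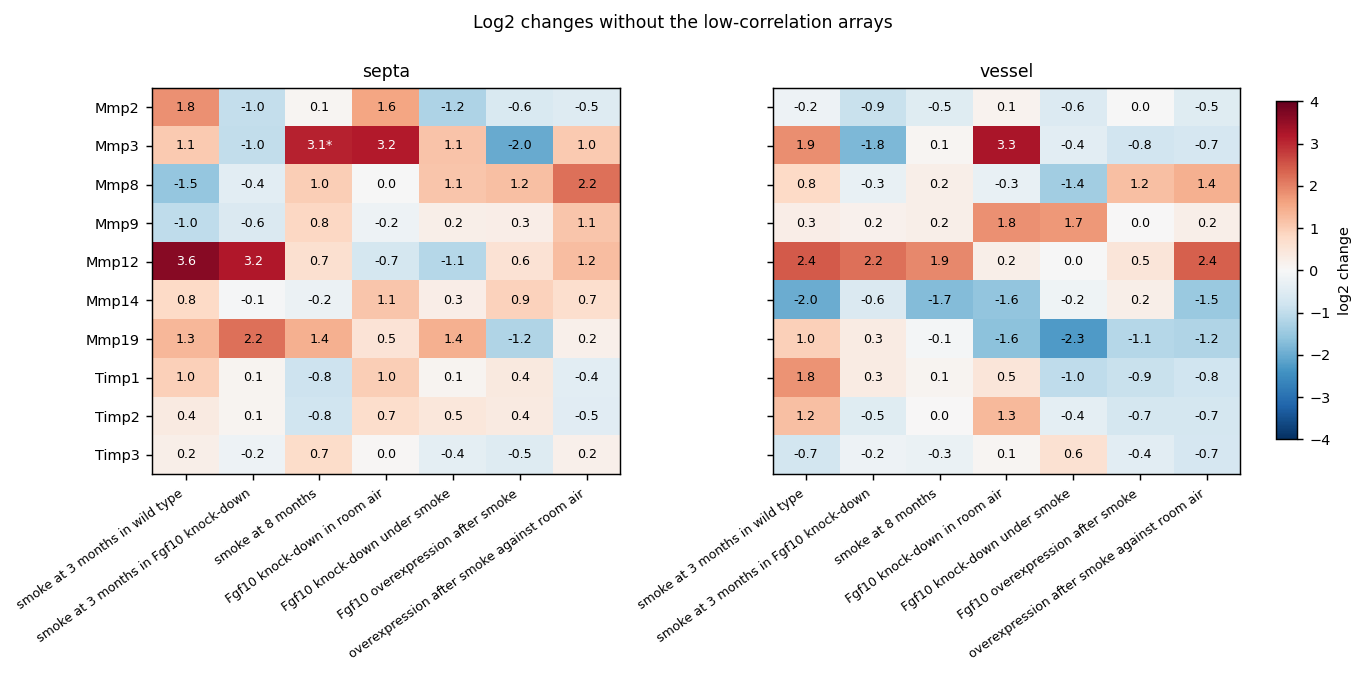
Log2 changes of the 10 genes in 7 comparisons per compartment, without the 3 low-correlation arrays (red higher, blue lower, an asterisk for limma adjusted p under 0.05). Mmp3 at 8 months of smoke in septa carries the one asterisk, and Mmp12 has positive values in each smoke comparison of both compartments.

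Within these comparisons few other pathway genes passed. Lcn2, a neutrophil and epithelial protein, was higher in overexpression vessels than in room air vessels (3.27, limma adjusted p = 0.00627). Without the low-correlation arrays it also passed for smoke at 8 months in septa (3.17, limma adjusted p = 0.000118) and vessels (2.86, limma adjusted p = 0.0049). Plg, the plasminogen gene, was lower in knock-down than in wild-type smoke vessels over all arrays, the low-correlation one included (-2.90, limma adjusted p = 0.0099). In that comparison 1200 of 22280 genes passed (5.39 percent). Spp1, a matrix protein that metalloproteinases cleave, passed for smoke at 8 months in septa without the low-correlation arrays (3.77, limma adjusted p = 0.00142). The elastase inhibitors Serpina1a (3.47, limma adjusted p = 0.0190) and Serpina1b (3.83, limma adjusted p = 0.0235) did so too. These near-identical paralogs may share probe signal. None of the 11 AP-1 and ETS genes passed with smoke at 8 months in septa.

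The likeness of single arrays was described over 32 septa and 33 vessel arrays without the low-correlation ones. These arrays share their groups, so no p-value is given. In septa the genes nearest to Mmp8 were S100a8 (Pearson r = 0.79), Slc16a3, Csta2, Il1r2 and Grina, and nearest to Mmp9 were S100a9 (0.72), Csta2, Mmp8 (0.71), Dbnl and S100a8. S100a8, S100a9 and Il1r2 are neutrophil markers of the lists used here. The genes nearest to Mmp12 were Marco (0.77), Cxcl5 (0.71), Ctsc, Plet1 and Sgpl1, and Marco and Plet1 are alveolar macrophage markers of those lists. Mmp12 and Mmp8 themselves were at -0.23, and Mmp12 and Mmp19 at 0.49. For Mmp3 the nearest was Mt2, a metallothionein (0.75), followed by Phex, Il33, Ctu2 and Tef. Its r with Mmp8 was 0.13 and with Mmp12 0.07, its neighbours on chromosome 9.

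In vessels the picture was less clear. Mmp8 and Mmp9 had no neutrophil marker among their 5 nearest genes, which began with Derl3 (0.66) and Pigk (0.67). Timp1 was nearest to Saa1, an acute-phase gene (0.83), and Mmp19 to Msr1, the macrophage scavenger receptor (0.64). Mmp3 and Timp2 were at 0.73 with each other, and Pkd2 was among the 5 nearest genes of both. The brightest Timp2 probe alone was used for this. The first knock-down smoke vessel array was the lowest of its group for both genes (3.58 for Mmp3, 9.84 for Timp2), and its weight in the r was not tested. Among the inhibitors in septa, Timp1 and Timp2 were at 0.61, Timp1 and Timp3 at -0.16 and Timp2 and Timp3 at 0.04. With Mmp14 in septa, Timp1 was at 0.66, Timp2 at 0.51 and Timp3 at -0.08.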

How the data were processed

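RNA of laser-microdissected mouse lung septa and vessels was amplified and hybridised to 1-colour arrays, per the labels' protocols. The deposited values are log2 intensities of 62976 features on 68 arrays, from 3.27 to 15.98, with equal distributions on all arrays, and 44 are missing. The submitters' processing notes name limma, and its version and the steps before deposit are not given in the sources used here. No depth applies to arrays, and the number of arrays per group limits precision.

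Groups follow the sample titles. Each gene was read from its brightest probe by the mean over all arrays, and was tested if that probe was above percentile 40 of its array on at least 4 arrays with no missing value. limma 3.58.1 in R 4.3.3 fitted the 7 group means of each compartment over its 34 arrays, and all 14 groups for septa against vessels and for differences of effects. P-values were adjusted by Benjamini-Hochberg over all genes tested, with a threshold of 0.05. The code was tested on simulated data. Septa and vessel arrays of 1 mouse may not be independent. The labels say biological replicates, and do not tie arrays to animals.

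All 10 genes were described by rule. Of the other lists, genes past the threshold were open to naming, smallest p first, at most 10 a list. Likeness is the Pearson r of the 5 nearest named genes. The members and lists were chosen with earlier results of these data known. Alternatives were other probes and their mean, no filter, centring, array weights, the compared groups alone, an Xist covariate, a replicate block, the conflicting label and arrays left out.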

Additional observations from a re-analysis of the deposited data

Results flagged for a closer look

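In 6 of 140 sets of 1 gene in 1 group, 1 array lay far from the rest by Dixon's criterion, which chance gives in about 1 in 20 sets. Mmp8 on the first knock-down room air vessel array was at 7.64, with the nearest at 6.49. Mmp9 on the fourth 8-month smoke septa array was at 4.74, with the nearest at 8.17. On the same array Timp3 was at 15.88, with the nearest at 13.21, and this array had a median correlation of 0.745 with its compartment. Timp2 on the first 8-month smoke septa array was at 10.57, with the nearest at 11.74. Mmp19 on the first wild-type smoke vessel array was at 9.54, with the nearest at 11.24. Timp3 on the first knock-down smoke septa array, 1 of the 3 low-correlation arrays, was at 4.55, with the nearest at 12.23.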

How the results depend on the processing

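Of 5801 member values recomputed under the alternatives, 5743 kept their side of the threshold, 46 passed newly, 11 no longer passed and 1 reversed after a call. Those 11 and the reversal, at 2.02 by the other probe, were all Mmp19 in the knock-down under smoke in vessels. Of 230 results, only that one and the 4 for septa against vessels passed over all arrays. Most values thus had no call to lose, and the 5743 do not measure stability. Among them 354 values without a call changed sign. With array weights the count of members past the threshold was 9 for septa against vessels, 2 for the knock-down under smoke in vessels, and 1 each for the knock-down in room air and for smoke at 8 months in septa. Of all genes, array weights passed 4372 of 22280 for the vessel knock-down under smoke and at most 10411 of 23877 for septa against vessels. In septa they passed 23 of 21514 for the knock-down in room air and 608 for smoke at 8 months. Member counts are to be read against these numbers. Without the low-correlation arrays the member counts of these 4 comparisons were 7, 0, 0 and 1, and the counts of all genes 7788, 1534, 0 and 139. The member count for the vessel knock-down under smoke was also 0 with the mean of probes, with centred arrays and with the compared groups alone. It was 2 with the Xist covariate, which gave 1 in septa. That covariate passed 1834 of 22280 genes in vessels and 4122 of 21514 in septa. With that covariate Timp1 also passed in vessels (-1.78, limma adjusted p = 0.0345) and Mmp12 passed in septa (-3.34, limma adjusted p = 0.0136). Sex is not labelled. In each compartment Xist was over 9.5 on 1 of 5 wild-type smoke and 3 of 5 knock-down smoke arrays. In room air these were 2 of 5 and 1 of 4. The causes were not tested. Leaving out 1 array at a time gave 4 to 7 members for septa against vessels, 0 to 2 for the knock-down under smoke in either compartment, and 0 to 1 for smoke in the knock-down, the interaction and smoke at 8 months in septa and for the compartment difference of the knock-down under smoke. Other comparisons stayed at 0. The number of all genes past the threshold in such fits ran from 0 to 4871 for smoke in the knock-down septa. It ran from 0 to 579 for the septa interaction and from 10 to 2736 for the compartment difference of the knock-down under smoke. Counting the conflicting wild-type smoke array as knock-down gave 3.90 for Mmp12 with smoke at 3 months in septa (limma adjusted p = 0.823).

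Whether equal replicate numbers mark 1 mouse cannot be told from the correlation of septa and vessel arrays, which are different tissues. Of 34 pairs with the same number 6 correlated over 0.1 (median 0.038, from -0.232 to 0.382). Of 34 septa arrays 10 correlated best with their own number. Xist was over 9.5 on equally many septa and vessel arrays in each condition, and whether the compartments share mice was not tested. With the replicate block Timp1 also passed for septa against vessels (-0.70, limma adjusted p = 0.0097), and without the low-correlation arrays the block, an alternative chosen after seeing the data, gave 7 members. The block changed no member count within a compartment. Over the alternatives other than leaving out 1 array, the number of all genes past the threshold ran from 4739 to 10411 for septa against vessels (4748 as reported), from 0 to 4372 for the knock-down under smoke in vessels (1200), from 0 to 4122 in septa (655) and from 4 to 608 for smoke at 8 months in septa (5). With 1 array left out at a time these numbers ran from 4363 to 6053, from 300 to 1766, from 0 to 5074 and from 2 to 24, in that order. Dim genes such as Mmp3 and Mmp14 in septa lie near the lower end of the scale, where small changes were not measurable.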
